A study of Mus musculus with 12 samples.

Results

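The keratin genes Krt7, Krt8, Krt18, Krt19, Krt20 and Krt23, the intermediate filament genes best known from simple epithelia, were followed across sorted epithelial cells of the mouse gallbladder and small intestine. The 6 genes were taken by symbol from the 43432 genes of a count table of RNA sequencing, through their Ensembl identifiers in GENCODE M21. No value of these libraries entered that rule, but the list was chosen with earlier results of these data known. All 6 were in the table, and all 6 passed the filter on low counts that left 16636 genes for testing.

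The cells came from Flare25 mice, IL-25 reporter animals in which red fluorescence (RFP) marks cells that transcribe Il25, and every group carries this reporter. Per the labels, epithelium of the proximal small intestine (SI) or the gallbladder (GB) was released with EDTA and DTT, and DAPI-negative single EpCAM+ cells were sorted into an IL-25+ (RFP+) and an IL-25- gate. That gave 4 groups of 3 libraries, called here SI-pos, SI-neg, GB-pos and GB-neg with the replicate number of the label. Treatment is described as homeostasis for all, but the gallbladder libraries carry the label HDM AF647, given 1 day before collection, and the small intestine libraries do not, so tissue and this label cannot be told apart. The labels give no age and no background strain, and they do not tie the replicates of a group to different animals. The p-values therefore describe variation among these libraries, part of which may be technical.

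Keratins are obligate heteropolymers: an acidic type I chain pairs with a basic type II chain, and the pairs assemble into filaments that are anchored at desmosomes and hemidesmosomes and carry mechanical load. Krt8 (type II) and Krt18 (type I) are the founding pair of simple epithelia. Krt19 is a type I keratin that lacks the usual tail domain and is prominent in ducts, Krt7 is a type II keratin of ductal and glandular epithelium, Krt20 is a type I keratin of differentiated intestinal cells, and Krt23 is a less studied type I keratin. IL-25 in these epithelia is known mainly from tuft cells, chemosensory cells with a bundle of apical filaments, for which keratin 18 antibodies have long served as a marker.

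In GRCm38 with GENCODE M21, Krt7 (ENSMUSG00000023039) lies on chr15:101411043-101430313 on the plus strand, Krt8 (ENSMUSG00000049382) on chr15:101996698-102004482 on the minus strand, and Krt18 (ENSMUSG00000023043) on chr15:102028180-102032027 on the plus strand. Krt18 is thus a type I gene inside the type II cluster, head to head with Krt8. The other type I genes lie on chromosome 11, all on the minus strand: Krt20 (ENSMUSG00000035775) at chr11:99428403-99438150, Krt23 (ENSMUSG00000006777) at chr11:99477974-99493137 and Krt19 (ENSMUSG00000020911) at chr11:100140810-100148665. All 6 are annotated as protein-coding, and the values are counts per whole gene.

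The sequences just upstream are shown for the head-to-head pair, for Krt23, whose levels ran with Krt18, and for Krt20, the chromosome 11 neighbour that ran the other way. They are RefSeq promoter windows of GRCm38.p6, which matched 5 of the 6 genes, trimmed to bases outside annotated exons, 5′ to 3′ on the gene's strand. Capitals mark a TATAAA match.
Krt8, chr15:102004483-102004592, minus strand: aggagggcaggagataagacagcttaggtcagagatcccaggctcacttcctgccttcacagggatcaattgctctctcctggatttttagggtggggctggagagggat
Krt18, chr15:102028060-102028179, plus strand: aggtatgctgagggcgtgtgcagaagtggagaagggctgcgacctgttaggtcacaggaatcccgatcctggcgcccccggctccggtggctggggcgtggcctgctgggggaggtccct
Krt23, chr11:99493138-99493257, minus strand: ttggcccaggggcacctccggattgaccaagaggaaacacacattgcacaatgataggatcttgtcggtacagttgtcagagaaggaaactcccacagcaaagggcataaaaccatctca
Krt20, chr11:99438154-99438273, minus strand: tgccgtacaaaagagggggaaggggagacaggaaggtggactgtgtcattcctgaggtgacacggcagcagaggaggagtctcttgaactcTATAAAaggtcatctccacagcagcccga
Both strands of these stretches were searched for TATAAA (the TATA box core), GGGCGG (a GC box core), TGANTCA (an AP-1 type site) and ATGCNAAT (an octamer type site, as POU factors bind). The one match was TATAAA in Krt20, 29 bases before its RefSeq start. Because exons were trimmed off, the stretches end 140 bases before the RefSeq start in Krt8, 36 in Krt18 and 17 in Krt23, so the bases where a TATA box usually lies were not searched in Krt8 and Krt18. The Krt8 stretch holds 110 bases. Among 32851 promoter windows of the 120 bases just before the RefSeq start, 6.34% held TATAAA, 26.5% GGGCGG, 3.41% TGANTCA and 1.36% ATGCNAAT. Exons were not trimmed off these windows. They cover bases that the Krt8, Krt18 and Krt23 stretches lack, so the shares are not a like background for those. A match or its absence describes these letters only.

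Library totals ran from 23703449 to 64736650 counts, and levels are given as counts per 1000000 counts of the library (CPM). The 12 tuft markers listed summed to 30620 to 36070 CPM in SI-pos and 28770 to 30250 CPM in GB-pos, against at most 283 CPM in any IL-25- library, and none was at 0 in any group. The labelled tissues were reflected in 12 enterocyte markers, which all passed the test as lower in gallbladder in either gate. The 9 gallbladder and biliary markers were less clear, with 5 called higher and 2 lower in gallbladder in either gate. They summed to 5879 to 6300 CPM in GB-neg and 1551 to 2433 CPM in SI-neg, but to 3711 to 4388 CPM in GB-pos and 3746 to 4568 CPM in SI-pos. A pair of libraries stood apart: GB-neg 1 held these enterocyte markers at a median of 5.70% of their level in SI-neg 3, against at most 0.184% in the other gallbladder libraries. For the reverse, 57 genes of the gallbladder were chosen from these data. They had at least 100 CPM in GB-neg 2 and 3 and were over 5 log2 higher in GB-neg than SI-neg. That rule used SI-neg 3 and so limits how high its value can be. SI-neg 3 held these genes at a median of 1.84% of their level in GB-neg 1, against at most 0.472% in the other intestinal libraries. The gate differences, the interactions, the tissue differences among IL-25- cells and the shares of the 6 keratins are therefore also given without both; list genes said to hold in every alternative were also fitted without both. The 8 squamous and basal keratinocyte markers summed to at most 4.09 CPM outside GB-neg. Within GB-neg they summed to 38.7 CPM in GB-neg 1 and to 1.5 and 1.6 CPM in GB-neg 2 and 3. Of the 8, Trp63, Krt5 and Krt6a were at 0 in GB-neg, while Krt14, Krt13, Krt4, Ivl and Lor had counts there.

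Across the 4 groups the 6 keratins fell into opposing sets. Krt18, Krt8 and Krt23 had their highest level in SI-pos and the next highest in GB-pos, Krt19 and Krt7 were highest in GB-neg and next highest in SI-neg, and Krt20 was an intestinal transcript that was highest in SI-neg. Tests below are quasi-likelihood F tests in edgeR over all 16636 genes with Benjamini-Hochberg adjustment, a call is an adjusted p below 0.05, and ± beside a log2 difference is its standard error. Fewer cells of a type and less RNA per cell cannot be told apart in such bulk libraries.

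**Figure D1:**
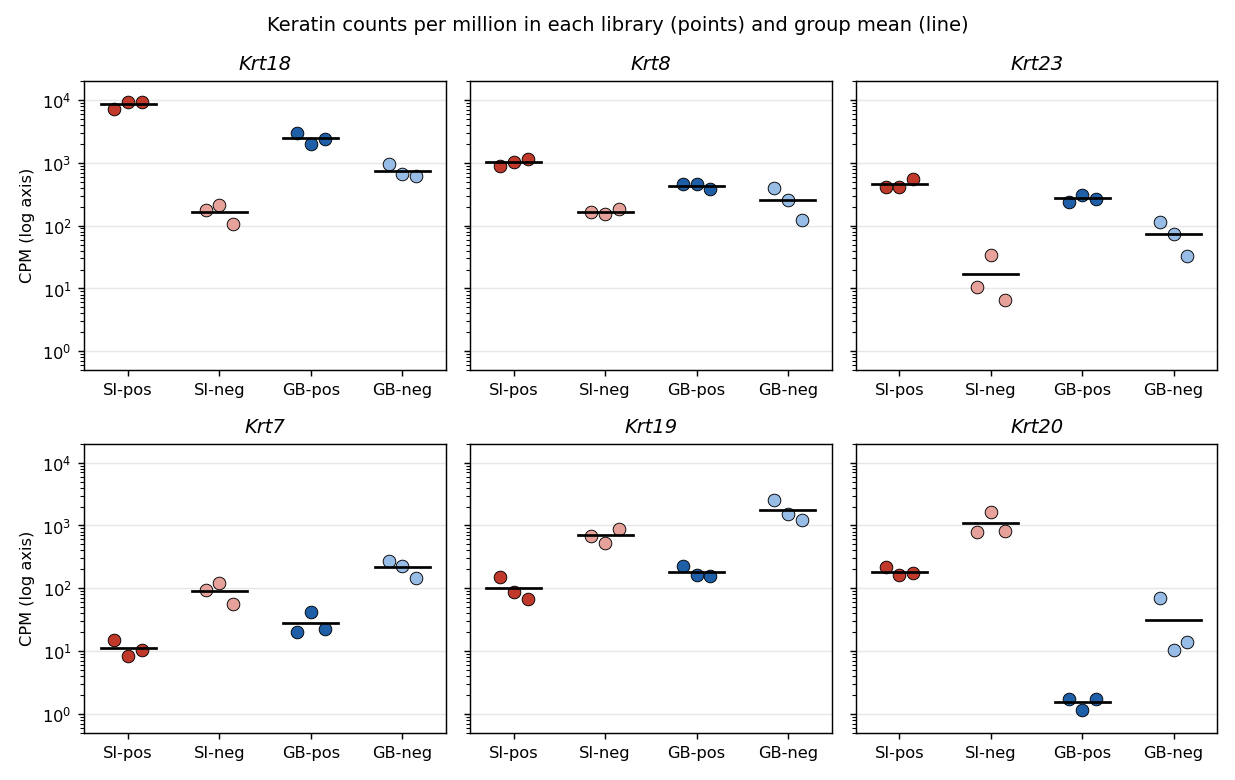
Level of each of the 6 keratins in the 12 libraries, in CPM on a log axis, with 3 points a group (SI-pos, SI-neg, GB-pos, GB-neg) and a line at each group's mean. Krt18 spans 107 to 9351 CPM and Krt20 spans 1.14 to 1636 CPM.

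Krt18, the type I partner of Krt8, was the dominant keratin transcript of IL-25+ cells in both tissues. It reached 7263, 9351 and 9211 CPM in SI-pos 1 to 3, against 175, 214 and 107 CPM in SI-neg 1 to 3. In the gallbladder it stood at 3011, 2000 and 2405 CPM in GB-pos and at 956, 673 and 624 CPM in GB-neg. No 2 groups overlapped, and the order was SI-pos, GB-pos, GB-neg, SI-neg. The IL-25+ cells were 55.9-fold higher in the intestine (log2 5.81 ± 0.35, adjusted p = 1.82e-07) and 2.85-fold higher in the gallbladder (log2 1.51 ± 0.29, adjusted p = 0.00198). The gate difference was smaller in the gallbladder, with an interaction of −4.30 ± 0.42 on the log2 scale (adjusted p = 7.01e-05). Among IL-25+ cells the gallbladder was 4.79-fold lower (log2 −2.26 ± 0.30, adjusted p = 0.00017), while among IL-25- cells it was 4.10-fold higher (log2 2.04 ± 0.30, adjusted p = 0.000344). All of these Krt18 calls held under every alternative run. Without SI-neg 3 and GB-neg 1 the log2 gate differences were 5.52 in the intestine and 1.63 in the gallbladder, the tissue difference among IL-25- cells was 1.66, and the interaction was −3.89.

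Krt8, the type II chain that pairs with Krt18, followed it in direction with a far narrower range. Levels were 879, 1029 and 1140 CPM in SI-pos, 163, 155 and 182 CPM in SI-neg, 462, 455 and 388 CPM in GB-pos, and 393, 255 and 124 CPM in GB-neg. SI-pos stood above every other library, and the lowest GB-pos library sat just below the highest GB-neg library. In the intestine Krt8 was 6.75-fold higher in IL-25+ cells (log2 2.75 ± 0.28, adjusted p = 1.47e-05), whereas the gallbladder difference of 0.59 ± 0.27 did not pass (adjusted p = 0.119). It moved with single GB-neg libraries in opposite directions, to 0.95 without GB-neg 1 (adjusted p = 0.0116) and to 0.31 without GB-neg 3 (adjusted p = 0.328). Without both GB-neg 1 and SI-neg 3 it was 0.95 (adjusted p = 0.0170), and the intestinal difference was 2.75. The interaction was −2.16 ± 0.38 (adjusted p = 0.00322) and −1.79 without both libraries (adjusted p = 0.00711). Krt8 was 3.20-fold lower in gallbladder than intestine among IL-25+ cells (log2 −1.68 ± 0.27, adjusted p = 0.000743). Among IL-25- cells the tissue difference was 0.48 ± 0.27 (adjusted p = 0.213) and passed only without GB-neg 3, at 0.77 (adjusted p = 0.0220); without GB-neg 1 and SI-neg 3 it was 0.15 (adjusted p = 0.767). The Krt8 counts carry a limit of their own: 29.7% of the 50-base windows of its transcripts also occur in other genes (the pseudogene Krt8-ps and Gm36026), and how the authors' counting treated such reads is not given in the sources used here.

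Krt23, a type I keratin of the chromosome 11 cluster, showed the second widest gate difference in the intestine. Its levels were 413, 412 and 546 CPM in SI-pos, 10.6, 33.8 and 6.65 CPM in SI-neg, 234, 312 and 268 CPM in GB-pos, and 115, 74.4 and 33.1 CPM in GB-neg. Both IL-25+ groups stood above both IL-25- groups, and SI-neg 2 overlapped GB-neg. The intestinal difference was 27.3-fold (log2 4.77 ± 0.69, adjusted p = 0.00052), and the log2 value was 4.35 without SI-neg 3 and GB-neg 1. In the gallbladder the difference was 1.72 ± 0.60 and missed the threshold (adjusted p = 0.0577), although the ranges did not overlap. That test passed in 8 of 22 alternatives, among them those without GB-neg 1 (2.10, adjusted p = 0.0449) and without GB-neg 1 and SI-neg 3 together (2.10, adjusted p = 0.00864). It also passed without SI-neg 2 (1.71, adjusted p = 0.00198) and without SI-neg 3 (1.71, adjusted p = 0.0207). These 2 libraries are outside the gallbladder comparison and enter it only through the fit shared by all 12 libraries. The difference barely moved without them, while its standard error fell from 0.60 to 0.32 and 0.46.

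The tissue differences of Krt23 were less settled than those of Krt18. The gallbladder level among IL-25- cells was 1.86 ± 0.61 higher on the log2 scale (adjusted p = 0.0473), but the call was lost in 14 of 22 alternatives, including 10 of the 12 that leave out 1 library (1.47 to 1.91, adjusted p = 0.0606 to 0.142). It held without SI-neg 2 (3.08, adjusted p = 0.000282) and without GB-neg 3 (2.17, adjusted p = 0.0445). Without SI-neg 3 and GB-neg 1 together it was 1.08 (adjusted p = 0.166). Among IL-25+ cells the difference was −1.20 ± 0.59 and did not pass (adjusted p = 0.172). It did pass in 3 of 22 alternatives, 1 of them without SI-neg 2 (−1.20, adjusted p = 0.0181), a library outside this comparison. Its interaction of −3.06 ± 0.85 (adjusted p = 0.0488) was lost in 14 of 21 alternatives, 9 of them leaving out 1 library (−3.21 to −2.67, adjusted p = 0.0702 to 0.108). It held without SI-neg 2 (−4.27, adjusted p = 0.000349), without SI-neg 3 (−2.64, adjusted p = 0.0467) and without GB-neg 3 (−3.36, adjusted p = 0.0448), and was −2.25 without SI-neg 3 and GB-neg 1 (adjusted p = 0.0546). SI-neg 2 was also the library with the most goblet cell transcripts, at 48650 CPM summed over 8 markers against 13800 and 4607 CPM in the other SI-neg libraries, and the part of this in the Krt23 values was not tested.

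Krt19, the tailless type I keratin of ducts, ran the other way and was the leading keratin of IL-25- gallbladder cells. It stood at 2552, 1531 and 1204 CPM in GB-neg 1 to 3 and at 226, 166 and 156 CPM in GB-pos. The intestinal libraries held 683, 522 and 891 CPM in SI-neg and 150, 86.5 and 67.6 CPM in SI-pos. No 2 groups overlapped in CPM, in the order GB-neg, SI-neg, GB-pos, SI-pos. CPM leaves out the TMM scaling factors of the tests, which were 0.84 to 0.894 in SI-pos and 1.137 to 1.214 in GB-pos. Divided by these factors, the Krt19 levels of SI-pos and GB-pos overlapped. IL-25+ cells were 6.19-fold lower in the intestine (log2 −2.63 ± 0.30, adjusted p = 3.65e-05) and 11-fold lower in the gallbladder (log2 −3.46 ± 0.31, adjusted p = 4.95e-06). The interaction of −0.83 ± 0.40 did not pass (adjusted p = 0.239). Among IL-25- cells the gallbladder was 2.35-fold higher (log2 1.24 ± 0.29, adjusted p = 0.00753), and among IL-25+ cells the difference was 0.41 ± 0.29 (adjusted p = 0.333). The gate calls and the tissue call held in every alternative. Without SI-neg 3 and GB-neg 1 the 2 gate differences were −2.49 and −3.19, the tissue difference among IL-25- cells was 1.13, and the interaction was −0.70 (adjusted p = 0.365).

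Krt7, the type II keratin of ductal epithelium, had the same order of groups as Krt19. Its levels were 267, 228 and 148 CPM in GB-neg, 92.4, 123 and 56.7 CPM in SI-neg, 20.2, 41.8 and 22.1 CPM in GB-pos, and 14.9, 8.48 and 10.4 CPM in SI-pos. Again no 2 groups overlapped in CPM, although the TMM factors brought GB-pos 1 and SI-pos 1 to about the same level. IL-25+ cells were 7.58-fold lower in the intestine (log2 −2.92 ± 0.40, adjusted p = 0.000158) and 8.64-fold lower in the gallbladder (log2 −3.11 ± 0.40, adjusted p = 9.73e-05), and both calls held in every alternative. The interaction was −0.19 ± 0.53 (adjusted p = 0.884), so no difference between the gate effects was detected, within a standard error of 0.53. Neither tissue difference passed: 0.88 ± 0.38 among IL-25+ cells (adjusted p = 0.108) and 1.07 ± 0.38 among IL-25- cells (adjusted p = 0.0527). The latter passed in 9 of 22 alternatives, including that without SI-neg 2 (1.52, adjusted p = 0.0154). It also passed without GB-pos 1 (1.11, adjusted p = 0.0425), GB-pos 2 (1.11, adjusted p = 0.0270) or GB-pos 3 (1.11, adjusted p = 0.0483), which enter it only through the fit shared by all 12 libraries. Without SI-neg 3 and GB-neg 1 it was 0.70 (adjusted p = 0.283), the gate differences were −3.22 in the intestine and −3.00 in the gallbladder, and the interaction was 0.22 (adjusted p = 0.900).

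Krt20, the keratin of differentiated intestinal cells, was mainly an intestinal transcript and was lower in IL-25+ cells of either tissue. SI-neg held 799, 1636 and 816 CPM and SI-pos 217, 160 and 174 CPM. GB-neg 1 held 69.7 CPM against 10.3 and 13.9 CPM in GB-neg 2 and 3, and GB-pos held 1.76, 1.14 and 1.71 CPM, which are 50, 27 and 53 counts. The 4 groups did not overlap. Among IL-25+ cells the gallbladder was 162-fold lower (log2 −7.34 ± 0.82, adjusted p = 0.000134) and among IL-25- cells 40.2-fold lower (log2 −5.33 ± 0.73, adjusted p = 0.000515). Without SI-neg 3 and GB-neg 1 these were −7.31 and −6.74.

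The gate differences of Krt20 were less stable. In the intestine IL-25+ cells were 5.62-fold lower (log2 −2.49 ± 0.64, adjusted p = 0.0159), a call lost without SI-pos 1 (−2.60, adjusted p = 0.0503), SI-pos 2 (−2.42, adjusted p = 0.0666), SI-pos 3 (−2.46, adjusted p = 0.0673) or SI-neg 2 (−1.88, adjusted p = 0.0563), and without a filter on low counts (adjusted p = 0.0533). In the gallbladder the difference was −4.50 ± 0.72 (adjusted p = 0.00107), and −3.29 without GB-neg 1 (adjusted p = 6.81e-05); limma-voom gave adjusted p = 0.113. In GB-neg 1, Krt20 stood at 8.54% of its SI-neg 3 level, beside the median of 5.70% for the enterocyte markers. In SI-pos, Krt20 stood at 17.0% of its SI-neg mean, Krt19 at 14.5% and Krt7 at 12.5%, while the 12 enterocyte markers ranged from 19.2% to 135% with a median of 28.3%. The part of enterocyte transcripts in these Krt20 values was not tested. The interaction of −2.01 ± 0.89 did not pass (adjusted p = 0.206), and it was −0.80 without GB-neg 1. Without SI-neg 3 and GB-neg 1 the gate differences were −2.72 and −3.29, and the interaction was −0.57 (adjusted p = 0.600).

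Counted over the comparisons, the calls of the 6 genes are given beside the share of all tested genes called the same way. In the intestine 3 of 6 were higher in IL-25+ cells and 3 of 6 lower, where 14.5% and 12.8% of all tested genes were called. In the gallbladder 1 was higher and 3 lower, against 12.4% and 14.4% of all genes. Gallbladder against intestine among IL-25+ cells gave 0 higher and 3 lower, against 10.5% and 13.1%. Among IL-25- cells it gave 3 higher and 1 lower, against 13.0% and 11.7%. For the interaction 0 were higher and 3 lower, against 3.63% and 5.60%. The keratins lower in the interaction were Krt8, Krt18 and Krt23, the set that was higher in intestinal IL-25+ cells.

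The ranges of the compared groups did not overlap for 6 of the 6 keratins in the intestinal gate comparison, where this was so for 47.0% of all tested genes. The numbers were 5 of 6 in the gallbladder gate comparison against 39.8%, 6 of 6 between tissues among IL-25+ cells against 43.9%, and 4 of 6 among IL-25- cells against 41.1%. All these ranges are of CPM without the TMM factors of the tests. Divided by those factors, Krt19 overlapped between tissues among IL-25+ cells, and Krt7 came to the edge of overlap. The median log2 difference of the 6 was 0.13 in the intestinal gate comparison and −1.26 in the gallbladder one, where the medians of all genes were −0.07 and −0.15. Between tissues it was −1.44 among IL-25+ cells and 1.16 among IL-25- cells, beside −0.09 and −0.03 for all genes, and for the interaction it was −2.09 beside −0.11. Scaling by relative log expression (RLE) instead of TMM moved the median of all genes by −0.12 in the intestinal gate comparison, by 0.11 between tissues among IL-25+ cells and by 0.17 in the interaction. It raised the share of interaction calls that are higher from 39.3% to 51.2%. No keratin's direction changed with it, although the interaction of Krt7 went from −0.19 to −0.0019. The comparisons share groups, so their values stand side by side and are not independent.

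**Figure D2:**
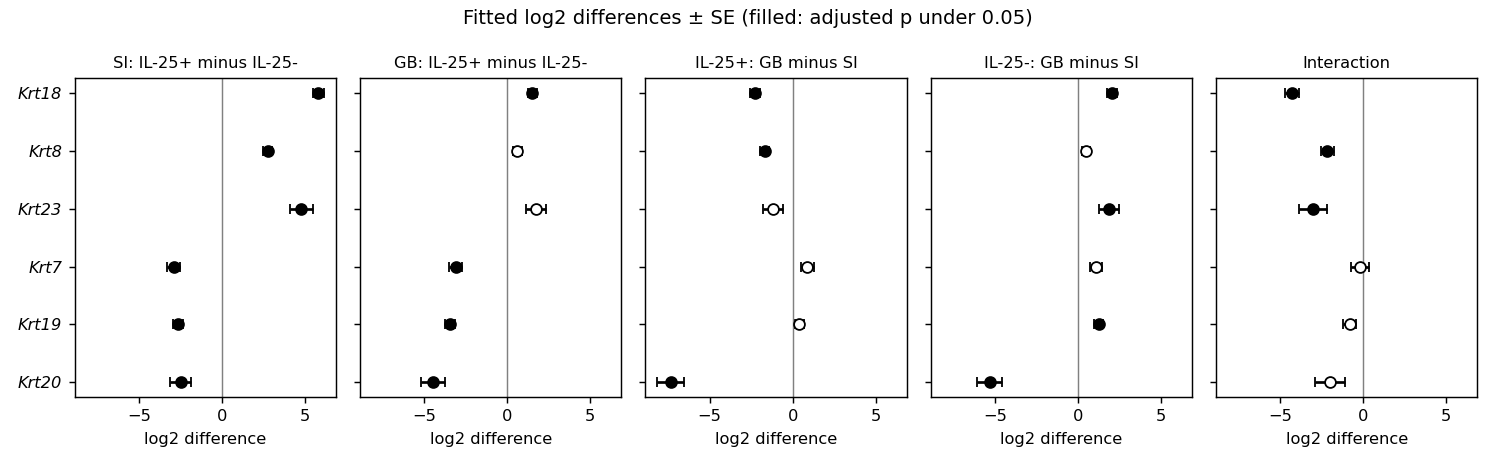
Fitted log2 difference ± standard error of the 6 keratins in the 5 comparisons, with filled points where the adjusted p is below 0.05. Krt18, Krt8 and Krt23 lie to the right of 0 in the intestinal gate comparison and to the left of 0 in the interaction.

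Dividing CPM by the length of each gene's merged exons (CPM per kb) put the 6 on a scale on which genes can be compared. On that scale IL-25+ cells of both tissues had the same leading order, Krt18, Krt8, Krt23, in each of their 6 libraries. Krt18 alone made up 86.1% ± 1.44 (SD, n = 3) of the summed level in SI-pos and 77.2% ± 4.13 in GB-pos, against 9.87% ± 2.69 in SI-neg and 31.7% ± 4.27 in GB-neg. In GB-neg the leading transcript was Krt19, at 55.5% ± 1.80, followed by Krt18 in each library. SI-neg was led by Krt20, at 47.0% ± 11.95, and Krt19, at 33.7% ± 12.4, with Krt20 first in 2 of 3 libraries. Krt23 held 4.22% ± 0.60 in SI-pos and 8.05% ± 2.33 in GB-pos, above its 0.87% ± 0.60 in SI-neg and 2.66% ± 0.78 in GB-neg. Without SI-neg 3 the SI-neg shares were 50.9% for Krt20, 28.4% for Krt19, 11.4% for Krt18 and 1.11% for Krt23. Without GB-neg 1 the GB-neg shares were 54.5% for Krt19, 33.7% for Krt18, 2.46% for Krt23 and 0.478% for Krt20, the last against 0.823% with it.

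Although the type I gene in the lead differed between groups, the summed type II level stayed a small part of the type I level throughout. Type II over type I was 0.0810 ± 0.0043 (SD, n = 3) in SI-pos, 0.0942 ± 0.0172 in SI-neg, 0.116 ± 0.0228 in GB-pos and 0.103 ± 0.0236 in GB-neg, with single libraries from 0.0744 to 0.142. The group ranges overlapped for every pair of groups but SI-pos and GB-pos, and the Krt8 share of the summed level was 7.47%, 7.49%, 10.2% and 7.45% in the same order. Krt8 over Krt18, the classical pair, moved instead with the group: 0.0868 ± 0.0053 in SI-pos, 0.133 ± 0.0300 in GB-pos, 0.242 ± 0.0841 in GB-neg and 0.821 ± 0.376 in SI-neg. In SI-neg 1 to 3 the ratio was 0.683, 0.532 and 1.25, and the mean was 0.608 without SI-neg 3, where no library of another group exceeded 0.302. Without GB-neg 1 the GB-neg mean was 0.212. Type II over type I was 0.0899 in SI-neg and 0.0984 in GB-neg without these libraries. These are transcript ratios after cDNA amplification and carry the length used: taking the longest transcript of Krt7 (4094 bases against 7049 in merged exons) raised its share from 0.0239% to 0.0410% in SI-pos and from 1.83% to 2.84% in GB-neg. Krt8 enters each ratio, and 29.7% of its 50-base windows also occur in other genes. How such reads were counted is not given, so the Krt8 values in these ratios and shares carry that limit too. In all, the 6 genes took 0.894% to 1.12% of all counts in SI-pos, 0.298% to 0.396% in GB-pos, 0.215% to 0.435% in GB-neg and 0.192% to 0.269% in SI-neg. Mitochondrial transcripts took a further 12.1% to 17.2% in SI-pos, 26.6% to 34.9% in SI-neg, 7.13% to 8.83% in GB-pos and 11.2% to 25.0% in GB-neg, and leaving them out ended a single call, the Krt23 interaction (adjusted p = 0.0504).

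**Figure D3:**
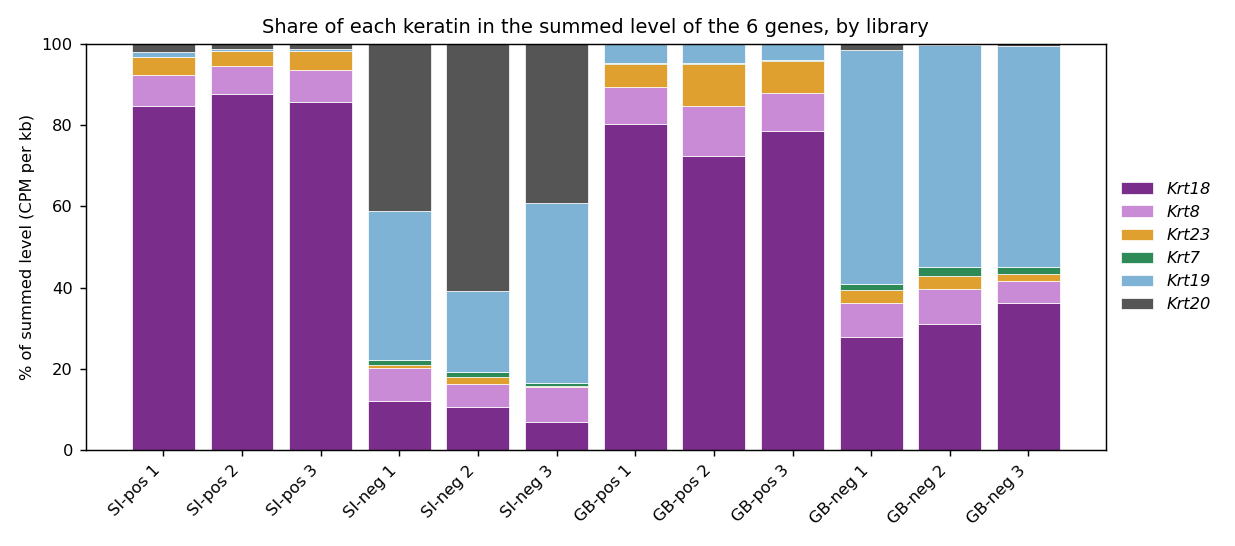
Share of each keratin in the summed level of the 6 genes (percent of summed CPM per kb of merged exons) in each of the 12 libraries, stacked to 100%. Krt18 fills most of each IL-25+ bar, Krt19 leads in GB-neg, and Krt20 and Krt19 fill most of each SI-neg bar.

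Among 13526 genes with a mean of at least 1 CPM, the genes closest in pattern were found by the root mean square difference (RMSD) of mean-centred log2 CPM over the 12 libraries. Nearest to Krt18 were Suco at an RMSD of 0.42, Krt23 itself at 0.61 and the membrane protein gene Tmem176a at 0.61. For Krt23 they were the hexokinase Hk1 at 0.54, the tight junction gene Ildr1 at 0.56 and Krt18 at 0.61, so that these 2 keratins were each among the other's closest 3. Krt8 lay nearer to the myosin light chain Myl6 at 0.20, Arhgap27 at 0.35 and Cadps2 at 0.35 than to Krt18 at 1.24. Krt7 lay nearest to C130074G19Rik at 0.38, the RNA-binding protein gene Zfp36l1 at 0.44 and the prostaglandin E receptor Ptger4 at 0.45, with Krt19 at 0.54. For Krt19 the closest were Rhpn2 at 0.38, Zfpm1 at 0.44 and St7 at 0.46. For Krt20 they were the cytochrome P450 gene Cyp2d26 at 0.24, the neutral amino acid transporter Slc6a19 at 0.50 and Chp2 at 0.51. The likeness is over 12 libraries in 4 groups and says nothing of shared control; with a smaller prior count the third neighbour of Krt19 became Golm1 and the second of Krt20 became Pla2g12b.

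Beyond these 6, few keratins were transcribed. Of 47 other keratin genes in the table, 33 stayed under 1 CPM in every library, 13 of them without any count, and 10 passed the filter. In the gate comparisons 2 of the 10 were higher in IL-25+ cells in each tissue and 0 lower, numbers near the 14.5% and 12.4% of all tested genes called higher. Krt222, a keratin-like gene, was the shared one: 71.5, 70.7 and 86.0 CPM in SI-pos and 37.6, 34.5 and 31.4 CPM in GB-pos, against at most 2.12 CPM in any IL-25- library. Its log2 differences were 5.88 ± 0.92 in the intestine (adjusted p = 0.000666) and 7.53 ± 1.03 in the gallbladder (adjusted p = 0.000248), and both calls held in every alternative. Its lower level in GB-neg than SI-neg (log2 −3.24 ± 0.92, adjusted p = 0.0236) rests on 26 against 154 counts, all 26 of them in GB-neg 1, and held in 15 of 22 alternatives.

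A pair of keratins known from hair follicles was found at low level in IL-25+ cells of one tissue each. Krt27 had 5.33, 7.24 and 5.71 CPM in SI-pos, 536 counts in all, and 0 counts in SI-neg, at least 218-fold higher by a floor of 3 counts over the group (edgeR adjusted p = 0.000867). GB-pos had 1 count of Krt27, a 506-fold ratio to SI-pos with a 95% counting interval of 90.5 to 20000 (adjusted p = 0.00181). Krt79, a type II keratin of hair canal and sebaceous duct, had 6.41, 4.47 and 3.39 CPM in GB-pos, 393 counts in all, and 0 in GB-neg, at least 206-fold higher (adjusted p = 0.00369). SI-pos had 3 counts of Krt79, a ratio of 139 with an interval of 47.1 to 675 (adjusted p = 0.0174, passing in 19 of 21 alternatives). Krt1, a keratin of suprabasal epidermis, was also called higher in GB-pos than SI-pos (log2 7.03 ± 2.33, adjusted p = 0.044), but 159 of its 180 GB-pos counts were in GB-pos 2 and the call held in 7 of 20 alternatives. The intervals and floors cover counting error only, and PCR copies are not independent molecules. Krt27 passed the filter on low counts only through SI-pos, and Krt79 only through GB-pos. Their ratios and p-values are thus no separate support for a high level in that group.

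Transcripts of the proteins that tie keratin filaments to cell junctions were called in both directions. Of 13 tested genes on a list of 14 desmosome and keratin linker genes, 4 were higher and 2 lower in intestinal IL-25+ cells and 2 higher and 3 lower in gallbladder IL-25+ cells, with medians of 0.18 and 0.37. All tested genes had medians of −0.07 and −0.15, with 14.5% higher and 12.8% lower in the intestine and 12.4% and 14.4% in the gallbladder, so 2 of 13 is near the background. Dsp, the desmoplakin gene whose protein joins keratins to the desmosome, was higher in IL-25+ cells of both tissues, at 665 ± 75.7 against 437 ± 89.0 CPM in the intestine (SD, n = 3; log2 0.77 ± 0.17, adjusted p = 0.00484) and 1729 ± 269 against 641 ± 47.3 CPM in the gallbladder (log2 1.22 ± 0.17, adjusted p = 0.00018). Pkp1, a desmosomal plakophilin, went the same way, with 215 ± 36.5 against 33.0 ± 19.4 CPM (log2 2.91 ± 0.68, adjusted p = 0.00885) and 76.8 ± 18.1 against 1.22 ± 1.01 CPM (log2 5.82 ± 0.79, adjusted p = 0.000298). The cornified envelope linker periplakin, Ppl, was lower in IL-25+ cells of both tissues, at log2 −2.87 ± 0.34 in the intestine (adjusted p = 4.2e-05) and −2.60 ± 0.33 in the gallbladder (adjusted p = 7.5e-05). Its partner envoplakin, Evpl, was lower in gallbladder IL-25+ cells at log2 −4.52 ± 0.56 (adjusted p = 6.8e-05). The desmosomal cadherin Dsg2 was higher in intestinal IL-25+ cells (log2 1.40 ± 0.18, adjusted p = 0.000106). These calls held under every alternative. Evpl was also lower in intestinal IL-25+ cells (log2 −1.97 ± 0.50, adjusted p = 0.0104), a call lost without SI-pos 3 (−1.68, adjusted p = 0.0503).

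Between tissues, 4 linkers were higher and 3 lower in gallbladder among IL-25+ cells, and 5 were higher and 2 lower among IL-25- cells, where 10.5% and 13.1% of all tested genes were called among IL-25+ and 13.0% and 11.7% among IL-25- cells. Ppl had the largest of the stable increases, at 104 ± 34.2 CPM in GB-pos against 3.96 ± 0.87 in SI-pos (SD, n = 3; log2 4.26 ± 0.36) and 553 ± 285 in GB-neg against 31.7 ± 3.35 in SI-neg (log2 3.98 ± 0.35). The cadherin Dsc2 was lower in gallbladder in both gates, at log2 −1.42 ± 0.22 among IL-25+ cells (adjusted p = 0.000511) and −1.49 ± 0.22 among IL-25- cells (adjusted p = 0.000367). In the interaction 4 linkers were lower and 0 higher, against 5.60% and 3.63% of all genes.

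Of 8 hemidesmosome genes, which anchor keratins to the basement membrane, 1 was higher and 5 lower in intestinal IL-25+ cells and 1 higher and 3 lower in the gallbladder, with medians of −1.32 and −0.995 beside −0.07 and −0.15 for all genes. A single gene of 8 is near the share of all genes called higher, 14.5% and 12.4%, and the shares called lower were 12.8% and 14.4%. The higher one was Itgb4, integrin beta 4, in both tissues, at log2 1.05 ± 0.27 in the intestine (adjusted p = 0.0105) and 0.89 in the gallbladder (adjusted p = 0.024, held in 18 of 22 alternatives). The integrin gene Itga6 went the other way, at log2 −0.89 ± 0.24 in the intestine (adjusted p = 0.0155) and −0.91 ± 0.24 in the gallbladder (adjusted p = 0.0134). Each of these 2 calls held in 19 of 22 alternatives. The tetraspanin Cd151 was lower in both, at log2 −1.14 ± 0.27 (adjusted p = 0.00682) and −1.39 ± 0.27 (adjusted p = 0.00189). Of 12 tested genes among 14 other intermediate filament genes, 2 were higher and 2 lower in intestinal IL-25+ cells and 2 higher and 1 lower in gallbladder IL-25+ cells, numbers near these shares of all genes. Nefl, the neurofilament light chain, stood at 152 ± 43.7 CPM in GB-pos against 0.62 ± 1.04 in GB-neg (SD, n = 3; log2 7.67 ± 1.29, adjusted p = 0.00146). It stood at 12.1 ± 4.53 CPM in SI-pos against 0.92 ± 0.65 in SI-neg (log2 3.89 ± 1.10, adjusted p = 0.0247, held in 17 of 22 alternatives). Prph, peripherin, had 485 counts in SI-pos against 2 in GB-pos, a ratio of 229 with a 95% counting interval of 63.1 to 1900 (adjusted p = 0.00791). It passed the filter on low counts only through SI-pos, so these values are no separate support for a high level there.

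**Figure D4:**
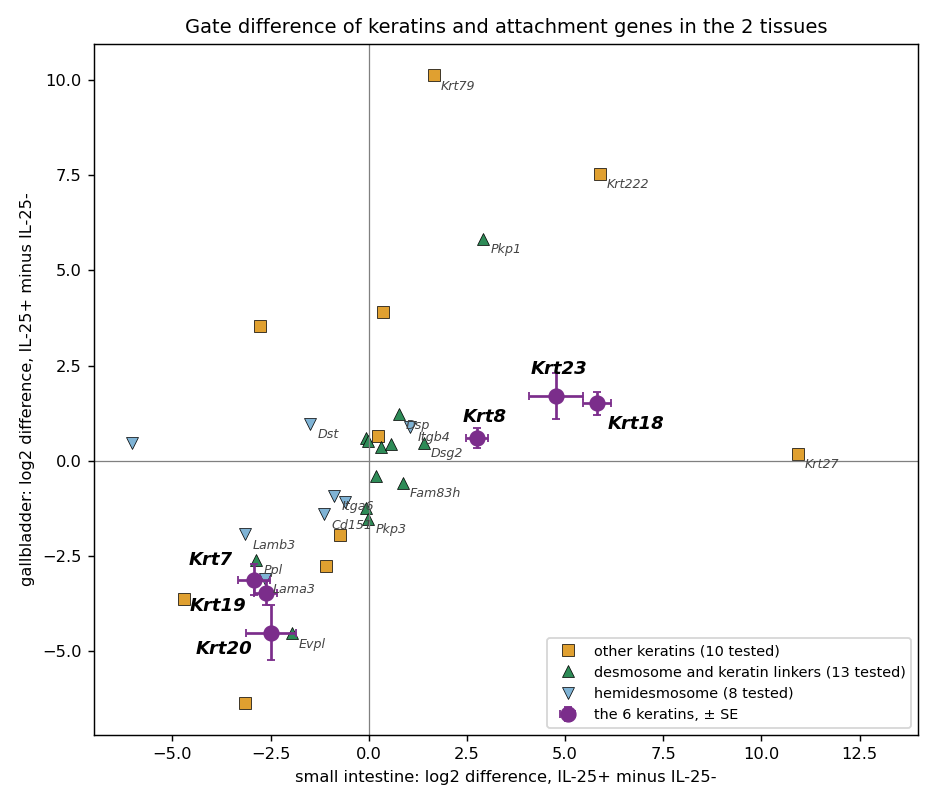
Fitted log2 difference between IL-25+ and IL-25- cells in the intestine (x axis) and the gallbladder (y axis) for the 6 keratins (with standard errors), 10 other keratins, 13 linkers and 8 hemidesmosome genes; both axes share the IL-25 gate but no libraries. Krt7, Krt19 and Krt20 lie low on both axes. Krt18 and Krt23 lie far to the right, at 1.51 and 1.72 on the y axis, and Krt8 lies at 2.75 on the x axis and 0.59 on the y axis. Genes at or near 0 counts in a group (Krt27, Krt79) have positions that depend on the prior count.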

How the data were processed

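Poly(A) RNA of sorted cells was amplified (NuGen Ovation V2), made into Nextera XT libraries, which do not mark strand, and sequenced as single-end 50-base reads, per the labels' protocols. Values in the table the authors deposited are raw counts of reads, by Ensembl gene; STAR 2.7.2b, GRCm38 and DESeq2 1.26 are named in the submitters' processing notes, while the read counter, strand setting and annotation are not given in the sources used here. A further 11 columns that match no sample label were not used. Of 43432 genes, 42462 were matched to GENCODE M21, and the 970 unmatched held at most 0.132% of a library's counts.

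Counts were fitted with edgeR 4.0.16 in R 4.3.3 (filterByExpr with a minimum count of 10, TMM, robust quasi-likelihood over all 12 libraries with group as the only factor, Benjamini-Hochberg per comparison). The standard error is the log2 difference divided by the root of F. CPM uses library totals without TMM. The floor behind a count of 0 is 3 counts, or 0.0463 to 0.127 CPM by library. Replicate libraries were checked to be distinct. The fit was tested on simulated counts. The members, gene lists and tests were chosen with earlier results of these data known, so member counts are descriptions. Named genes are the 6 keratins, the 3 closest genes of each, and up to 4 called genes per list and comparison with the lowest adjusted p; of those from the lists the text gives most that held in every alternative and some with their limits, and 1 gene is not reported here. As alternatives, counts were refitted with RLE size factors, with DESeq2 1.42.0 and with voom of limma 3.58.1 with quality weights, with other filters (none, or 5 CPM in 3 libraries), a replicate block, from the 2 groups of a comparison only, and with each library, SI-neg 3 and GB-neg 1 together, or mitochondrial genes left out; composition also used other gene lengths. Leaving out the pair of libraries for the composition, and the longest protein-coding transcript, were chosen after seeing the data. Overlapping antisense genes (Gm671 with Krt7, Gm36026 with Krt8) cannot be separated without strand. Tables and figures used Python 3.11.15, pandas 2.3.3, numpy 2.4.6 and matplotlib 3.10.9.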

Additional observations from a re-analysis of the deposited data

Results flagged for a closer look

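The gate difference between IL-25+ and IL-25- cells differed between gallbladder and intestine, by the interaction test of the difference itself in edgeR, for 3 of the 6 keratins: −2.16 for Krt8, −4.30 for Krt18 and −3.06 for Krt23 on the log2 scale (adjusted p = 0.00322, 7.01e-05 and 0.0488). Krt8 and Krt18 kept this under each of the 21 alternatives, and Krt23 in 7 of them. All 3 were lower, where 5.60% of all tested genes were called lower and 3.63% higher.

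The same test passed for 8 genes of the lists of other keratins, linkers, hemidesmosome and other intermediate filament genes, each in only some alternatives. These lists had 10, 13, 8 and 12 tested genes, and the shares of all tested genes called were 3.63% higher and 5.60% lower. The cell type marker lists are left out here. Among linkers the values were −0.92 for Dsg2 (held in 7 of 21), −2.55 for Evpl (8 of 21), −1.51 for Pkp3 (12 of 21) and −1.43 for Fam83h (19 of 21), a gene whose product organises keratin filaments. The value was 2.46 for Dst, the hemidesmosomal plakin dystonin (11 of 21), and −1.81 for the lamin gene Lmna (11 of 21). Krt27 gave −10.74 (7 of 21) and Sync, an intermediate filament gene of muscle, 11.08 (6 of 20). Both have a group with 0 counts, so these sizes depend on the prior count. Krt27 also passed the filter on low counts only through SI-pos.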

How the results depend on the processing

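Of 654 values of the 6 keratins under the alternatives, 593 kept their direction and side of the threshold, 34 lost the threshold, 23 gained it and 4 changed sign; 20 of 30 results never changed. Over single libraries left out, Krt20 in the intestinal gate comparison ran from −2.72 to −1.88, and without a filter it was −2.50 (adjusted p = 0.0533). In the gallbladder gate comparison Krt8 ran from 0.31 to 0.95 and was 0.95 without SI-neg 3 and GB-neg 1, Krt20 was −4.04 by voom, and Krt23 ran from 1.41 to 2.10 and passed with DESeq2 (1.77), voom (1.65), the stricter filter (1.72), the compared groups alone (1.79) and the pair left out (2.10). Among IL-25+ cells, Krt23 between tissues ran from −1.32 to −1.05 and passed with voom (−1.18) and the compared groups alone (−1.07). Among IL-25- cells, Krt7 ran from 0.82 to 1.52 and passed with voom (1.47), no filter (1.13) and the compared groups alone (1.10); Krt8 ran from 0.15 to 0.77; Krt23 ran from 1.47 to 3.08 and missed with RLE (1.76), no filter (1.91), the compared groups alone (1.88) and the pair left out (1.08). In the interaction, Krt7 ran from −0.65 to 0.09, with 0.03 without SI-pos 1, 0.09 without SI-neg 3, 0.005 without GB-pos 1 and 0.22 without the pair. Krt23 there ran from −4.27 to −2.64 and missed with RLE (−2.85), no filter (−3.07), the pair left out (−2.25) and mitochondrial genes left out (−3.02). Leaving out a library of a group that is not compared acts only through the fit shared by all 12 libraries. The cause of the other shifts was not tested. Calls over all genes numbered 4529 in the intestinal gate comparison (6837 by voom) and 1536 in the interaction (2364 with DESeq2). With the longest transcript, or the longest protein-coding one, the Krt7 share was 0.0410% in SI-pos, 1.77% in SI-neg, 0.322% in GB-pos and 2.84% in GB-neg, and the Krt19 share was 5.16% in GB-pos and 58.8% in GB-neg. Depth limits Krt20 in GB-pos, at 27 to 53 counts, and Krt27, Krt79 and Sync.

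Whether replicate numbers pair the libraries is not given in the labels. Same-numbered libraries of the 2 gates correlated at 0.026, −0.002 and −0.028 in the intestine and 0.094, 0.019 and 0.162 in the gallbladder. Libraries of different number ran from −0.062 to 0.062 and from −0.179 to 0.096. With 3 libraries a group, such correlations cannot exclude pairing. With the replicate block, Krt7 between tissues among IL-25- cells passed at 1.16 (adjusted p = 0.0297; nested in tissue 1.16, adjusted p = 0.0477), the Krt23 interaction was −3.35, and −3.42 with the nested block (adjusted p = 0.0562), and calls numbered 4254 and 4074 in the intestinal and gallbladder gate comparisons.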
